A study of Homo sapiens with 647 samples.

Results

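The response of T47D cells carrying FGFR2 M538I to FGF2 in the presence of fulvestrant was measured by comparing the libraries of the Fulv+FGF2 arm with those of the Fulv arm of that line. The libraries were chosen by the treatment in their titles, which gave 12 of the 647 libraries of the series, 6 per arm. T47D is an estrogen receptor positive breast cancer line of luminal type. It had been infected with a pLX307 lentivirus encoding FGFR2 with the M538I substitution, and both arms carry that transgene. Per the labels, cells were plated for 48 h and treated for 24 h, and RNA from plate lysates was sequenced by SMART-Seq2. The Fulv+FGF2 arm received fulvestrant at 100 nM and FGF2, and the Fulv arm received fulvestrant alone. The dose of FGF2, the promoter driving the transgene and whether the line is 1 clone are not given in the sources used here. Further M538I arms used for comparison were Fulv+FGF2 with FIIN-3 (an FGFR inhibitor, 100 nM), Fulv+FGF2 with trametinib (Tram, a MEK inhibitor, 500 nM), FGF2 alone and DMSO, of which the DMSO arm had 5 libraries and the others 6 each. The same Fulv+FGF2 and Fulv arms were taken from cells carrying wild-type FGFR2, from GFP-carrying cells and from parental cells, with 6 libraries per arm.

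FGF2 is a secreted ligand that binds FGF receptors together with heparan sulfate and brings their kinase domains together. The activated receptor recruits adaptors such as FRS2, GRB2 and GAB1 and signals through RAS, RAF, MEK and ERK, as well as through PI3K and PLCγ. ERK induces early transcription factors of the ETS, AP-1 and EGR families, and with them phosphatases and Sprouty proteins that dampen the same pathway. In luminal breast cancer cells, cyclin D1 links both estrogen receptor and growth factor signalling to entry into the cell cycle, and fulvestrant binds the estrogen receptor and promotes its degradation.

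The libraries held 6069331 to 8059858 counts in the Fulv+FGF2 arm and 4977579 to 8644803 in the Fulv arm. The mitochondrial 16S rRNA MT-RNR2 took 8.83% to 21.1% of counts in Fulv+FGF2 libraries and 10.2% to 25.9% in Fulv libraries. In 2 M538I DMSO libraries and 1 wild-type FGFR2 Fulv library it took under 5%, so results with these arms were also computed without them. Libraries with neighbouring title numbers were more alike than others of their arm. The median SD of their log2 difference was 0.624 in the Fulv+FGF2 arm, against 0.72 for other pairs, and 0.501 in the Fulv arm, against 0.724. No pair agreed within sampling noise. The labels do not say whether libraries came from separate cultures. The p-values therefore rest on the variation among the libraries of an arm, part of which may be technical. Of 13 markers of fibroblasts, blood and endothelium, COL1A2, CD3E, HBB and PECAM1 were at 0 in every library of both arms. Their summed level was 16.7 to 33.7 CPM (counts scaled to a common library size) in Fulv+FGF2 libraries and 15.6 to 32.7 CPM in Fulv libraries. Of the 3 that could be tested none was called. All 9 luminal markers of T47D were tested, and GATA3 (-0.0676), FOXA1 (-0.0541), KRT19, EPCAM and CDH1 did not differ past the threshold between the arms. The other 4 were called, with KRT18 (1.69) and KRT8 (1.37) higher and PGR (-1.23) and ESR1 (-1.01) lower.

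The receptor itself was checked first. FGFR2 was at 403.73, 237.01, 730.57, 684.87, 209.4 and 131.85 CPM in the 6 Fulv+FGF2 libraries, against 402.31, 509.45, 236.8, 234.63, 230.56 and 187.67 CPM in the Fulv libraries. The arms overlapped, and the difference did not pass the test (log2 fold change 0.44 ± 0.35 SE, adjusted p = 0.495). In the GFP line FGFR2 ran from 5.72 to 20.6 CPM in the Fulv+FGF2 arm and from 7.42 to 28.8 CPM in the Fulv arm, below every M538I library of both arms. Reads of the transgene and of the endogenous gene cannot be told apart in these counts, and the M538I substitution itself was not read. FGFR1 was at a median of 8.74 CPM with FGF2 and 8.42 CPM without it, and FGFR3, FGFR4 and FGFRL1 did not pass the test either. The FGF2 transcript was at 0 in every Fulv+FGF2 library and at 0.208 CPM in 1 Fulv library (2 counts). The FGF2 gene overlaps NUDT6 on the other strand, and use of strand in counting is not stated.

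Adding FGF2 under fulvestrant raised 583 genes and lowered 543 of the 12387 genes tested, which is 4.71% and 4.38% of them. A gene was called higher or lower where its Benjamini-Hochberg adjusted p over all genes tested was under 0.05 in edgeR's quasi-likelihood test. Fold changes are Fulv+FGF2 over Fulv on the log2 scale and are given with their standard error. The median over all genes tested was 0.0195. More than a 2-fold change was found in 536 of the 1126 called genes. Every Fulv+FGF2 library lay above every Fulv library in 2.69% of the genes tested, and below every one in 2.53%. With neighbouring libraries summed, which leaves 3 values per arm, calls fell to 1.7% of the genes, and 92.4% of them were among the 1126 called with single libraries. Of the 1126, 17.3% were still called. With only the libraries in the 2 lowest ranges of 96 title numbers, and the range as a term, 1258 genes were higher and 1074 lower. No higher range holds both arms. The filter keeps a gene that is well read in 1 arm only, so counts over the tested members of a gene list describe those members and do not set the list apart from other genes. In these bulk samples a change in the share of cells and a change in RNA per cell cannot be told apart.

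Several feedback inhibitors of ERK signalling rose. Of 16 listed genes 14 were tested, 6 were higher and none was lower, with a median log2 fold change of 0.67. In Fulv against DMSO 12 were tested, SPRY4 not among them. Its place among the tested genes, and so part of this median, rests on the Fulv+FGF2 arm. SPRY4, a Sprouty inhibitor of receptor tyrosine kinase signalling, was at 17.4, 12.1, 13.8, 17.3, 7.33 and 8.13 CPM in the Fulv+FGF2 libraries, against 0.483, 1.44, 0, 0, 2.08 and 0 CPM in the Fulv libraries. Every Fulv+FGF2 library was above every Fulv library, and 3 of the Fulv libraries held no SPRY4 count (log2 fold change 4.14 ± 0.59, adjusted p = 0.000161). DUSP6, the cytoplasmic phosphatase that removes phosphate from ERK, was at 85.5, 99.3, 83, 112.5, 81.5 and 86.7 CPM with FGF2, against 10.9, 15.5, 25, 16.2, 14.6 and 11.8 CPM in Fulv libraries. The arms were far apart and the 6 Fulv+FGF2 libraries lay close together (2.55 ± 0.20, adjusted p = 3.24e-07). DUSP4, a nuclear phosphatase of MAP kinases, ran from 134.9 to 171.6 CPM with a median of 155.8 in the Fulv+FGF2 arm, and from 25.8 to 55.3 CPM with a median of 45.3 in the Fulv arm (1.82 ± 0.17). ERRFI1, an inhibitor of EGF receptor family kinases, ran from 43.4 to 84.8 CPM with FGF2 and from 14 to 33.9 CPM without it (1.66 ± 0.22). Neither gene overlapped between the arms. DUSP5, a nuclear ERK phosphatase, was low in both arms, with 4.25 to 9.46 CPM in Fulv+FGF2 libraries and 0.507 to 3.77 CPM in Fulv libraries (1.78 ± 0.42, adjusted p = 0.0105). SPRED2 was the sixth (0.81 ± 0.18). SPRY2 had 0.54, SPRED1 1.12, DUSP1 0.0285 and DUSP10 -0.34 as log2 fold changes, none past the threshold.

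Promoters of called feedback and early genes are shown because these genes moved together. Of the 18 higher genes of these 2 lists 11 had an entry in the RefSeq promoter table (GRCh38.p14), and 3 are printed here, each as the 250 bases before the start of the gene, 5′ to 3′ on the gene's strand. SPRY4 lies on the minus strand (chr5:142324248-142324497), EGR1 on the plus strand (chr5:138465229-138465478) and DUSP6 on the minus strand (chr12:89352502-89352751). Capitals mark matches to 4 motifs searched on both strands.
SPRY4: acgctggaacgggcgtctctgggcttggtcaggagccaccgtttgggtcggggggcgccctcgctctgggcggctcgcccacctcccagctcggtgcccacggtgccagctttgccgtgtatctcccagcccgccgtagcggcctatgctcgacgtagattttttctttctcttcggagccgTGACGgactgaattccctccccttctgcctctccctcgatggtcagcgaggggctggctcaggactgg
EGR1: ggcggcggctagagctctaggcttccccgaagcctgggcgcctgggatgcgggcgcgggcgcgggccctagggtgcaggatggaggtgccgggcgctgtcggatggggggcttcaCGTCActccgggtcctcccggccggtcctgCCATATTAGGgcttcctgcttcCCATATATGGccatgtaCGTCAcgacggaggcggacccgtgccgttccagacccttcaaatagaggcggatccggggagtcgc
DUSP6: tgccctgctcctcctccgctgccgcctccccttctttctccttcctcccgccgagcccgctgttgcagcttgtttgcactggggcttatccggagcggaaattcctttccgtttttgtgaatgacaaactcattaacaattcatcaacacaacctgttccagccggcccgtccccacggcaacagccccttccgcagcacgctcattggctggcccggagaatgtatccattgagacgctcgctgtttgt

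The motifs were CCGGAAG for ETS factors, TGANTCA for AP-1, TGACG for the core of the cyclic AMP response element (CRE) and the CArG box of serum response factor (CC, then 6 of A or T, then GG). EGR1, an immediate early gene, held 2 CArG boxes, the nearer starting 83 bases before the gene, and 2 CRE cores, the nearer at 66 bases. SPRY4 held 1 CRE core at 68 bases, and DUSP6 held none of the 4 motifs in this window. Among 35116 promoters of the same length, 1.16% held a CArG box, 21.2% a CRE core, 8.52% the ETS letters and 6.57% the AP-1 letters. No match overlapped another. A match is a description of the letters and says nothing of binding in these cells.

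Several early transcription factors were higher as well. Of 26 ETS, AP-1 and other early factors 20 were tested, 12 were higher and none lower, with a median of 1.26. FOSL1, ETV4, ETV5, EGR1 and MAFF had too few counts to be tested in Fulv against DMSO. Their place among the tested genes, and so this median, rests on the Fulv+FGF2 arm. FOSL1, an AP-1 subunit, was at 4.92 to 10.2 CPM with a median of 8.02 in Fulv+FGF2 libraries, and at 0 to 0.88 CPM with a median of 0.277 in Fulv libraries (4.49 ± 0.50, adjusted p = 1.3e-05). ETV4, an ETS factor of the PEA3 group, ran from 8.35 to 18.7 CPM with FGF2 and from 0 to 2.01 CPM without it (3.87 ± 0.48). Its relative ETV5 ran from 1.77 to 3.92 CPM with FGF2 and from 0.242 to 1.15 CPM without (2.00 ± 0.39). The arms of these 3 genes did not overlap, and under fulvestrant alone some libraries held no count of FOSL1 or ETV4. EGR1 was at 3.55 to 6.09 CPM in the Fulv+FGF2 arm and at 0.417 to 1.81 CPM in the Fulv arm, where 1 library stood above the others (2.56 ± 0.38, adjusted p = 0.000303). MAFF, a small MAF protein, was at 3.55 to 7.36 CPM with FGF2 and at 0.394 to 1.93 CPM without (2.41 ± 0.37). JUNB, another AP-1 subunit, ran from 30 to 121.1 CPM with FGF2 and from 9.46 to 29.6 CPM without (1.73 ± 0.30), a range that was wide but did not overlap. KLF4 (1.48 ± 0.29), ETS2 (1.48 ± 0.38), ELK3 (1.5 ± 0.41), IER3 (1.35 ± 0.16), IER2 (1.12 ± 0.23) and KLF10 (1.08 ± 0.33) were also higher. The early genes FOS (1.17), MYC (0.0374) and JUN (-0.21) did not pass the test.

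**Figure D1:**
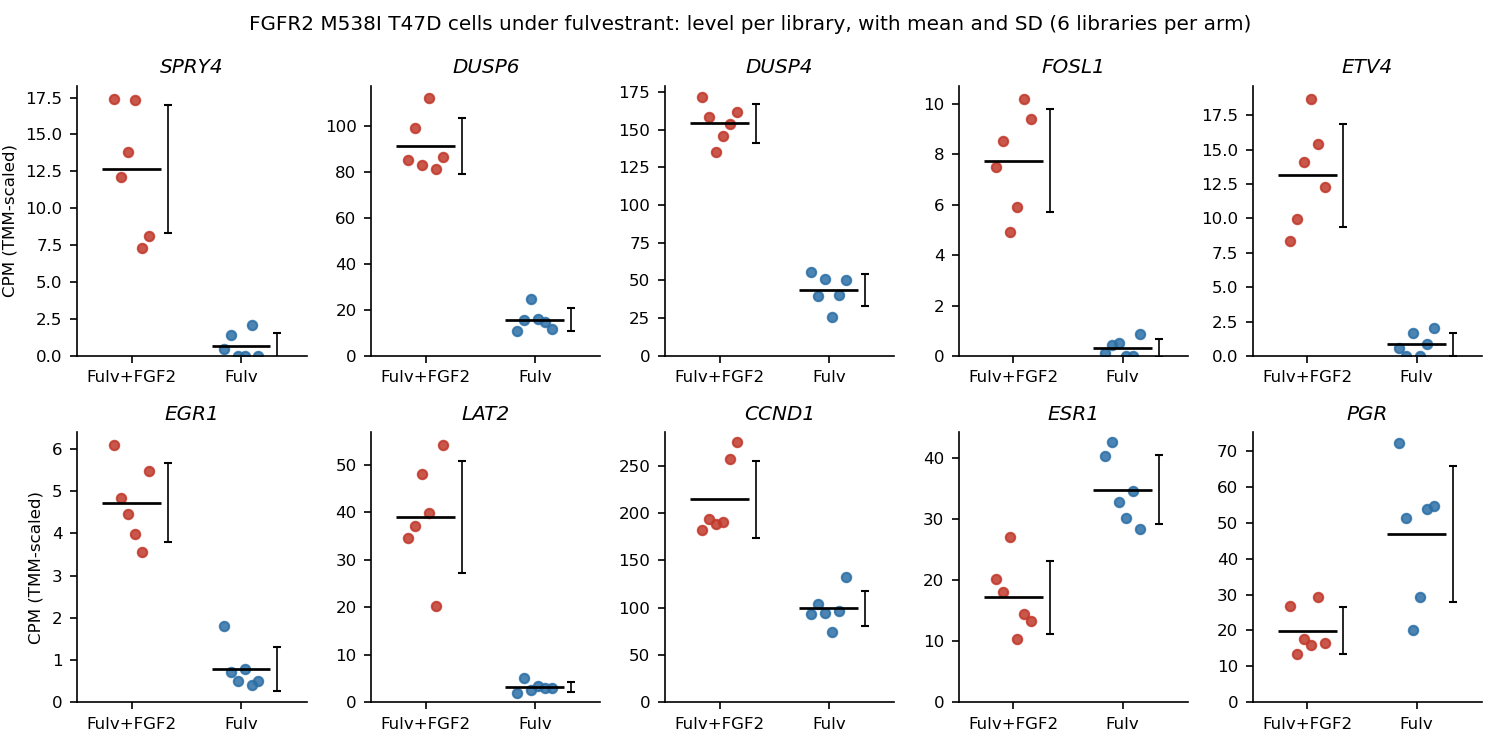
Level of 10 genes in each library of FGFR2 M538I T47D cells under fulvestrant, in CPM scaled by library, with the Fulv+FGF2 arm left and the Fulv arm right. Each point is 1 library, the horizontal line is the mean and the bar beside it the SD of 6 libraries; SPRY4, DUSP6, DUSP4, FOSL1, ETV4, EGR1, LAT2 and CCND1 lie higher with FGF2 without overlap, ESR1 lies lower without overlap, and PGR overlaps.

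Several effector genes listed as downstream of ERK were higher. Of 20 listed 14 were tested, 8 were higher and 1 lower, with a median of 1.48. In Fulv against DMSO 12 of the list were tested, PLAU not among them, so part of this median rests on the Fulv+FGF2 arm. Like the other lists, this one was chosen with earlier results of these data known. LAT2, an adaptor protein best known from lymphoid and mast cells, ran from 20.2 to 54.2 CPM with a median of 38.5 in Fulv+FGF2 libraries, and from 1.93 to 5.2 CPM with a median of 3.07 in Fulv libraries. Among called genes with a mean of at least 3 log2 CPM it had the largest change (3.61 ± 0.27, adjusted p = 3.24e-07). CCND1, which encodes cyclin D1, ran from 182.05 to 275.05 CPM with a median of 191.79 in the Fulv+FGF2 arm and from 74.7 to 131.98 CPM with a median of 95.5 in the Fulv arm (1.11 ± 0.16, adjusted p = 0.000172). The arms of both genes did not overlap. EPHA2, a receptor for ephrins, was at 9.84 to 17.8 CPM with FGF2 and 1.51 to 3.15 CPM without (2.54 ± 0.26). PHLDA2, a pleckstrin homology domain protein, was at 142.86 to 268.05 CPM with FGF2 and 23.9 to 54.5 CPM without, where 1 library stood above the others (2.52 ± 0.23). The EGF receptor ligands AREG and HBEGF were both higher. AREG ran from 74.3 to 210.7 CPM with FGF2, the highest from 1 library that stood apart, and from 9.9 to 43.5 CPM without (2.07 ± 0.29), and HBEGF changed by 1.84 ± 0.44. SPHK1 (2.38 ± 0.43), the kinase that makes sphingosine 1-phosphate, and the phosphate transporter SLC20A1 (0.972 ± 0.30) completed the higher members. The ephrin receptor EPHA4 was lower (-1.30 ± 0.28), and the urokinase PLAU was at 2.16 ± 0.68 with an adjusted p of 0.0519.

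Some of the adaptors and co-receptors that carry the FGFR signal were themselves higher. Of 16 listed 14 were tested, and 4 were higher with none lower, with a median of 0.385. SDC1, a heparan sulfate proteoglycan that can bind FGFs, ran from 70.6 to 145.5 CPM in the Fulv+FGF2 arm and from 29.6 to 67.3 CPM in the Fulv arm, without overlap (1.18 ± 0.20, adjusted p = 0.000878). GAB1 (0.975 ± 0.25) and SHC1 (0.846 ± 0.19) are docking and adaptor proteins of receptor tyrosine kinases, and FLRT3 (1.42 ± 0.37) is a membrane protein that interacts with FGF receptors.

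Further genes were among the largest rises of those with a mean of at least 3 log2 CPM. CAPN8, a calpain protease known from the stomach, ran from 25.3 to 47.7 CPM with FGF2 and from 1.26 to 4.59 CPM without (3.56 ± 0.30). IVL, the cornified envelope protein involucrin, ran from 81.8 to 337.6 CPM with FGF2 and from 9.42 to 26.6 CPM without (3.33 ± 0.34). GDF15, a secreted member of the TGF-beta superfamily induced by stress, ran from 136.6 to 328.6 CPM with FGF2 and from 9.18 to 48.7 CPM without (3.09 ± 0.33), and 1 library of each arm stood above its others. None of these 3 overlapped between the arms. ITGB6, the beta subunit of an integrin that binds latent TGF-beta, ran from 8.55 to 24.6 CPM with FGF2 and from 0.761 to 4.33 CPM without (3.07 ± 0.34). TIMP1, an inhibitor of matrix metalloproteinases, ran from 50.4 to 108.9 CPM with FGF2 and from 6.9 to 16.6 CPM without (2.52 ± 0.22). The peroxisomal oxidase ACOX2 (3.16 ± 0.30) and the focal adhesion protein TNS4 (2.51 ± 0.30) were higher as well. The hair keratin KRT81 was called (2.56 ± 0.62, adjusted p = 0.0129), but its arms overlapped and its near-identical paralogs make its counts uncertain.

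The genes that fell most formed a mixed group. ARHGAP15, a GTPase-activating protein for RAC, was at 0.849 to 6.62 CPM with FGF2 and 10.7 to 21.5 CPM without (-2.28 ± 0.33). Every Fulv+FGF2 library was below every Fulv library. Others were the enzymes CYP1A2 (-1.74 ± 0.38), ALDH2 (-1.59 ± 0.26), ADHFE1 (-1.58 ± 0.21) and GSTM4 (-1.68 ± 0.20), whose counts cannot be kept apart from its overlapping paralog GSTM2. RP11-663N22.1 (-2.33 ± 0.27), C2orf72 (-1.76 ± 0.24), LYRM9 (-1.61 ± 0.20), PHACTR1 (-1.60 ± 0.23) and the calpain CAPN5 (-1.59 ± 0.30) were lower too. Of 20 genes of FOXO activity and growth arrest 17 were tested, with 5 lower, 1 higher and a median of -0.33. The lower ones were PIK3IP1, an inhibitor of PI3K (-1.50 ± 0.40), the antiproliferative BTG1 (-1.14 ± 0.22), TP53INP1 (-1.02 ± 0.20), the repressor BCL6 (-0.759 ± 0.17) and YPEL5 (-0.72 ± 0.22), and the higher one was KLF6 (1.01 ± 0.22). PIK3IP1 ran from 0.28 to 6.65 CPM with FGF2 and from 6.64 to 15.3 CPM without, so that its arms touched. None of these 5 genes was called with neighbouring libraries summed.

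**Figure D2:**
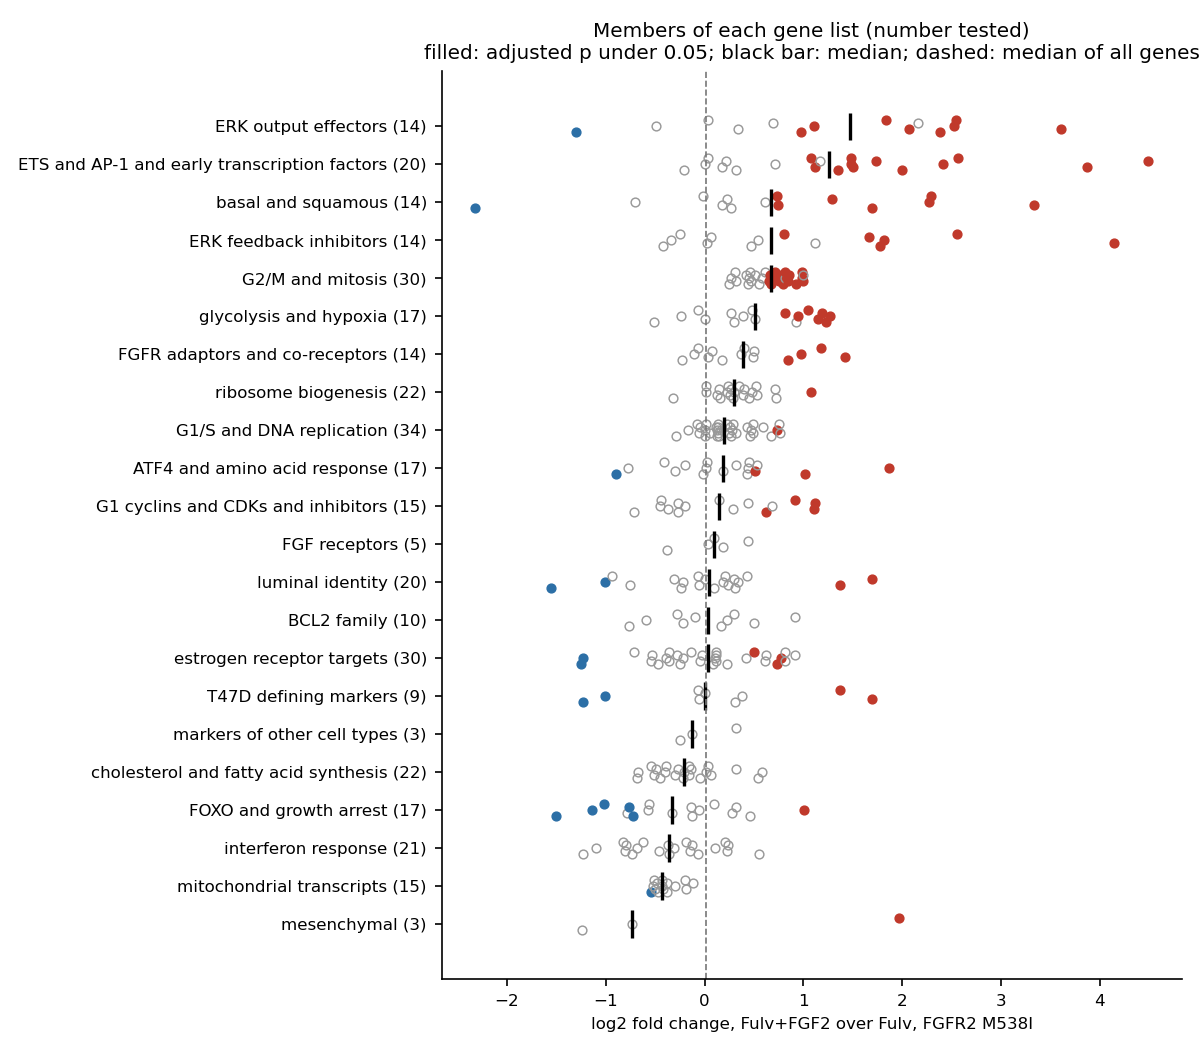
Log2 fold change of every tested member of 22 gene lists, Fulv+FGF2 over Fulv in FGFR2 M538I cells. Filled points passed an adjusted p of 0.05 (red higher, blue lower). Black bars are list medians and the dashed line is the median of all genes tested, 0.0195. Medians of the ERK output, ETS and AP-1, feedback, basal and squamous, and G2/M lists lie between 0.67 and 1.48. That of the estrogen receptor targets lies at 0.0307.

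Estrogen receptor targets did not move one way with FGF2. Across all genes tested, 4.71% were higher and 4.38% lower. Of 35 estrogen receptor targets 30 were tested, 3 were higher and 2 lower, and their median of 0.0307 was close to that of all genes. The higher ones were AGR2 (0.777 ± 0.22), IGFBP4 (0.735 ± 0.18) and STC2 (0.50 ± 0.15), and none of them stayed called with neighbouring libraries summed. PGR, the progesterone receptor and a classical target, was lower with FGF2. It was at 26.9, 13.4, 17.7, 16, 29.3 and 16.5 CPM in Fulv+FGF2 libraries, against 72.1, 51.4, 20.2, 29.2, 53.9 and 54.6 CPM in Fulv libraries. The 2 lowest Fulv libraries lay within the range of the Fulv+FGF2 arm, and the change was -1.23 ± 0.26 (adjusted p = 0.0062, and 0.0835 with neighbouring libraries summed). SCUBE2 was also called (-1.25 ± 0.39, adjusted p = 0.0484), a call that was lost, with adjusted p of 0.054 to 0.106, when any 1 of 9 of the libraries was left out. ESR1, which encodes the receptor, was at 20.1, 18, 27, 10.3, 14.4 and 13.3 CPM with FGF2, against 40.3, 42.5, 32.8, 30.1, 34.5 and 28.3 CPM without. Every Fulv+FGF2 library was below every Fulv library (-1.01 ± 0.22, adjusted p = 0.00577, and 0.0643 with neighbouring libraries summed). GREB1 (-0.716 ± 0.27, adjusted p = 0.108) and CXCL12 (-0.135 ± 0.31, adjusted p = 0.834) did not pass the test.

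The same targets were read against DMSO to place these values, using comparisons that share libraries with the first and are given side by side. Fulvestrant alone against DMSO gave 0 higher and 3 lower genes of 12619 (0% and 0.0238%), with 1829 genes at an unadjusted p under 0.05. Without the DMSO libraries low in MT-RNR2, 604 of 13127 genes were at such a p. DESeq2 called 1 higher and 3 lower, none of them shared with edgeR, and gave an adjusted p to 3875 genes, CXCL12 not among them. The 3 lower in edgeR were the chemokine CXCL12 (-1.86 ± 0.26), the pseudogene CYP2T1P and RP11-865I6.2. The median of the estrogen receptor targets was -0.54, and no other target was called. Fulv+FGF2 against DMSO gave 792 called genes of 12512 (2.74% higher and 3.59% lower), and 511 without the DMSO libraries low in MT-RNR2. Leaving out single libraries moved the called share between 2.21% and 14.5%. In that comparison 12 of 32 tested targets were lower and none higher, and 9 were lower without those libraries. CXCL12 was at 1.68 to 8.9 CPM in Fulv+FGF2 libraries, at 5.58 to 7.68 CPM in Fulv libraries and at 13.8 to 32.6 CPM in DMSO libraries. Both fulvestrant arms lay below the DMSO arm and overlapped each other. Fulv+FGF2 minus DMSO differences were -2.0 for CXCL12, -2.10 for SERPINA6, -1.94 for OLFM1 and -2.28 for SUSD3. The matching Fulv+FGF2 minus Fulv differences of SERPINA6 and OLFM1 were -0.21 and 0.0867, past no threshold. For PGR the difference was -1.91 against DMSO, -1.23 against Fulv and -0.69 for Fulv against DMSO, the last not called.

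**Figure D3:**
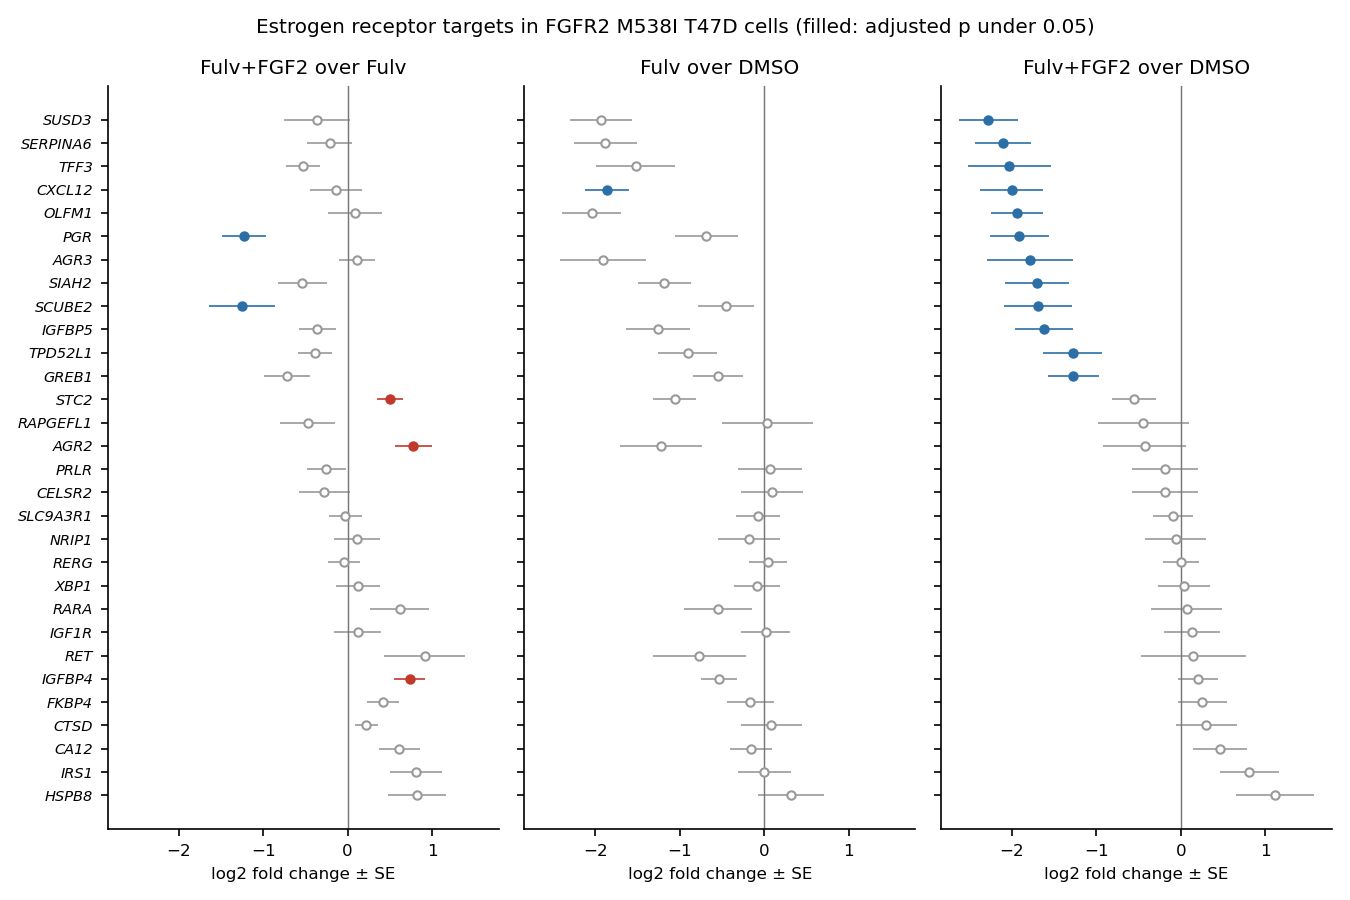
Log2 fold change with SE of 30 estrogen receptor targets in FGFR2 M538I cells, in 3 comparisons: Fulv+FGF2 over Fulv, Fulv over DMSO and Fulv+FGF2 over DMSO. Filled points passed an adjusted p of 0.05; targets such as CXCL12 and OLFM1 lie near -2 in both comparisons with DMSO and near 0 between Fulv+FGF2 and Fulv, while PGR and SCUBE2 are lower in both comparisons of Fulv+FGF2.

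Many genes of mitosis were higher with FGF2, while those of DNA replication mostly did not pass the test. Of 30 genes of G2 and mitosis, all tested, 15 were higher and none lower, with a median of 0.67. HMMR, a spindle protein, ran from 40.1 to 79.2 CPM with a median of 60.4 in Fulv+FGF2 libraries and from 21.7 to 36.8 CPM with a median of 32.1 in Fulv libraries, without overlap (0.99 ± 0.18, adjusted p = 0.00168). The mitotic kinases PLK1 (0.84 ± 0.17) and TTK (1.00 ± 0.31), the spindle factor TPX2 (0.99 ± 0.23), CDK1 (0.665 ± 0.17), its cyclin CCNA2 (0.71 ± 0.18), TOP2A (0.82 ± 0.24) and the proliferation marker MKI67 (0.65 ± 0.20) were among the others. Leaving out Fulv+FGF2 replicate 2 gave 7 calls, leaving out Fulv replicate 1, 4 or 6 gave 8, and with neighbouring libraries summed none was called (HMMR 0.98, adjusted p = 0.0575). Among all genes tested 4.71% were higher. Of 34 genes of the G1/S step and DNA replication 1 was higher and none lower, with a median of 0.197. It was RRM2, a subunit of ribonucleotide reductase, at 418.8 to 595.6 CPM with FGF2 and 258.3 to 353.7 CPM without (0.735 ± 0.15, adjusted p = 0.00378, and 0.148 with neighbouring libraries summed). The replication factor MCM10 was at 0.764 with an adjusted p of 0.0504. Among 15 tested G1 cyclins, kinases and inhibitors, 4 were higher: CCND1, CCND3 (0.62 ± 0.16), the pocket protein RBL1 (0.91 ± 0.26) and CDKN1A. CDKN1A, the inhibitor p21, ran from 104.2 to 148.2 CPM with FGF2 and from 51.3 to 73.4 CPM without, again with no overlap (1.12 ± 0.15, adjusted p = 0.000119).

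Among epithelial identity genes, a few changed strongly. Of 22 luminal genes 20 were tested, with 2 higher, 2 lower and a median of 0.0494. The simple epithelial keratins KRT8 and KRT18, which pair into filaments, were the higher ones. KRT8 ran from 16600 to 31800 CPM in Fulv+FGF2 libraries, the highest from 1 library that stood apart, and from 6570 to 9910 CPM in Fulv libraries (1.37 ± 0.18). KRT18 ran from 15800 to 39100 CPM with FGF2 and from 5500 to 9650 CPM without (1.69 ± 0.22). The arms did not overlap for either, but the 2 genes share exon bases in the annotation and have near-identical pseudogenes, so their counts are uncertain. The lower ones were ESR1 and BCAS1 (-1.55 ± 0.27). Of 24 basal and squamous genes 14 were tested, 7 were higher and 1 lower, with a median of 0.67. Beside IVL the higher ones included the laminin chain LAMB3 (2.27 ± 0.47), the annexin ANXA1 (1.69 ± 0.44), the integrin subunits ITGA6 (1.29 ± 0.29) and ITGB4 (0.73 ± 0.21), which form the laminin receptor of hemidesmosomes, and SFN (0.739 ± 0.17). The mucosal keratin KRT4 was lower (-2.32 ± 0.33). Of 12 mesenchymal genes 3 were tested, of which the integrin subunit ITGA5 was higher (1.97 ± 0.31) and VIM (-1.24) and FN1 (-0.734) did not pass the test.

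Genes of glucose uptake and glycolysis were partly higher. Of 17 tested glycolysis and hypoxia genes 7 were higher and none lower, with a median of 0.515. SLC2A1, the glucose transporter GLUT1, ran from 60.5 to 74.6 CPM with FGF2 and from 25.7 to 37.8 CPM without (1.15 ± 0.15, adjusted p = 5.67e-05), with an antisense gene overlapping it. The phosphofructokinase PFKP (1.19 ± 0.15), PFKFB3 (1.23 ± 0.35), HK2 (0.947 ± 0.29), LDHA (0.813 ± 0.23), EGLN3 (1.05 ± 0.21) and P4HA1 (1.27 ± 0.29) were the others. Of 17 tested genes of the ATF4 and amino acid response 3 were higher and 1 lower, and the higher ones were subunits of amino acid transporters. SLC7A11, the cystine transporter, ran from 18 to 30.7 CPM with FGF2 and from 3.75 to 9.9 CPM without (1.87 ± 0.24). SLC7A5 (1.02 ± 0.16) and SLC3A2 (0.51 ± 0.13), which form a transporter of large neutral amino acids, were the others, and the serine synthesis enzyme PHGDH was lower (-0.893 ± 0.16). Of 22 tested ribosome biogenesis genes 1 was higher (RRP12, 1.08 ± 0.26), with a median of 0.295. Among all genes tested 4.71% were higher and 4.38% lower. No member was called among 21 tested interferon response genes (median -0.36), 22 cholesterol and fatty acid synthesis genes (median -0.21) or 10 BCL2 family genes. Among 15 mitochondrially encoded transcripts MT-ND4 was lower (-0.543 ± 0.17, adjusted p = 0.0467) and the median was -0.427.

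Inhibition of FGFR in the presence of FGF2 was measured in the FIIN-3 arm, which shares the Fulv+FGF2 libraries with the comparison above. Fulv+FGF2 with FIIN-3 against Fulv+FGF2 gave 1997 higher and 2236 lower genes of 12405 (16.1% and 18%). Neither this comparison nor the trametinib one was also computed with neighbouring libraries summed. Feedback genes were lower in 6 of 12 tested, led by SPRY4 (-6.84 ± 0.53), DUSP6 (-4.94 ± 0.25) and DUSP4 (-3.20 ± 0.14). DUSP6 was at 1.12 to 4.63 CPM with FIIN-3, at 81.5 to 112.5 CPM in the Fulv+FGF2 arm and at 10.9 to 25 CPM in the Fulv arm, so the FIIN-3 libraries were below both. Early factors were lower in 13 of 20 and higher in 2, FOSL2 and MYC. ERK effectors were lower in 10 of 15 and higher in 1, with LAT2 at -5.91 ± 0.32 and CCND1 at -2.08 ± 0.15. Other large falls were in ACOX2 (-5.80 ± 0.37), ITGB6 (-4.88 ± 0.42) and the lipid transporter MFSD2A (-4.71 ± 0.34), and large rises were in the phosphatase DUSP15 (5.20 ± 0.29), KRT4 (3.47 ± 0.28) and FGF12 (2.86 ± 0.28). All 34 G1/S genes and all 30 mitotic genes were lower, with medians of -1.60 and -1.82. RRM2 was at 37.8 to 75.8 CPM with FIIN-3, against 418.8 to 595.6 CPM in the Fulv+FGF2 arm and 258.3 to 353.7 CPM in the Fulv arm. Of 18 FOXO and growth arrest genes 11 were higher and 1 lower, with BTG1 (2.19 ± 0.20) and PIK3IP1 (2.39 ± 0.34) among the higher. Of 30 estrogen receptor targets 6 were higher and 5 lower, with PGR at 1.75 ± 0.20 and GREB1 at 0.972 ± 0.22 among the higher, and ESR1 was higher as well (1.45 ± 0.21). Of 15 mitochondrially encoded transcripts 9 were higher. The part of cell number or RNA content in these values was not tested.

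Inhibition of MEK was measured in the trametinib arm, against the same Fulv+FGF2 libraries. It gave 463 called genes of 12188 (2.01% higher and 1.79% lower), and 812 without 1 Tram library in which MT-RNR2 took 5.83% of counts. Another Tram library held 1505020 counts, the fewest of the M538I arms used. Feedback genes were lower in 6 of 12 tested, with DUSP6 at -5.06 ± 0.24, SPRY4 at -5.20 ± 0.53 and DUSP4 at -3.47 ± 0.20. Early factors were lower in 7 of 20, with ETV4 at -5.97 ± 0.52 and EGR1 at -4.70 ± 0.62, and FOSL2 and ATF3 were higher. ERK effectors were lower in 6 of 15, with LAT2 at -4.23 ± 0.39, PHLDA1 at -2.19 ± 0.29 and CCND1 at -1.29 ± 0.17. CCND1 was at 67.7 to 96.3 CPM with Tram, at 41.1 to 56 CPM with FIIN-3 and at 182.05 to 275.05 CPM in the Fulv+FGF2 arm, with no overlap among the 3 arms. Mitotic genes were lower in 10 of 30, while 1 of 34 G1/S genes was lower. Without the Tram library at 5.83% MT-RNR2, whose omission raised the calls, 19 mitotic genes were lower. TNS4 (-4.16 ± 0.32) and CAPN8 (-3.60 ± 0.37) were among the largest falls, and IVL was at -0.833 ± 0.41 (adjusted p = 0.36). PGR was higher (0.931 ± 0.24), the chaperone HSPB8 too (1.98 ± 0.39), and 6 targets were lower, among them AGR2 (-1.79 ± 0.27) and IGFBP4 (-1.87 ± 0.22).

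The trametinib arm also showed higher interferon response genes. Of 23 tested 16 were higher and none lower, with a median of 1.86, and 13 to 19 were higher when single libraries were left out. IFIT1, an antiviral RNA-binding protein, was at 6.14 to 99.6 CPM with a median of 41.3 in Tram libraries, against 2.84 to 10.3 CPM with a median of 5.02 in Fulv+FGF2 libraries. The arms overlapped at their ends (2.99 ± 0.50, adjusted p = 0.00143). MX1 (2.93 ± 0.40), OAS1 (2.78 ± 0.46), ISG15 (2.43 ± 0.50) and the factor IRF9 (1.96 ± 0.28) were others. The antigen presentation gene HLA-DRA (3.15 ± 0.87) and the serpin SERPINA3 (3.13 ± 0.81) were the largest rises among genes with a mean of at least 3 log2 CPM. The markers of other cell types summed to 31.8 to 55.9 CPM in Tram libraries and 16.7 to 33.7 CPM in Fulv+FGF2 libraries, 1 of 3 tested was higher (LUM, 1.91 ± 0.35), and their part in these values was not tested.

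**Figure D4:**
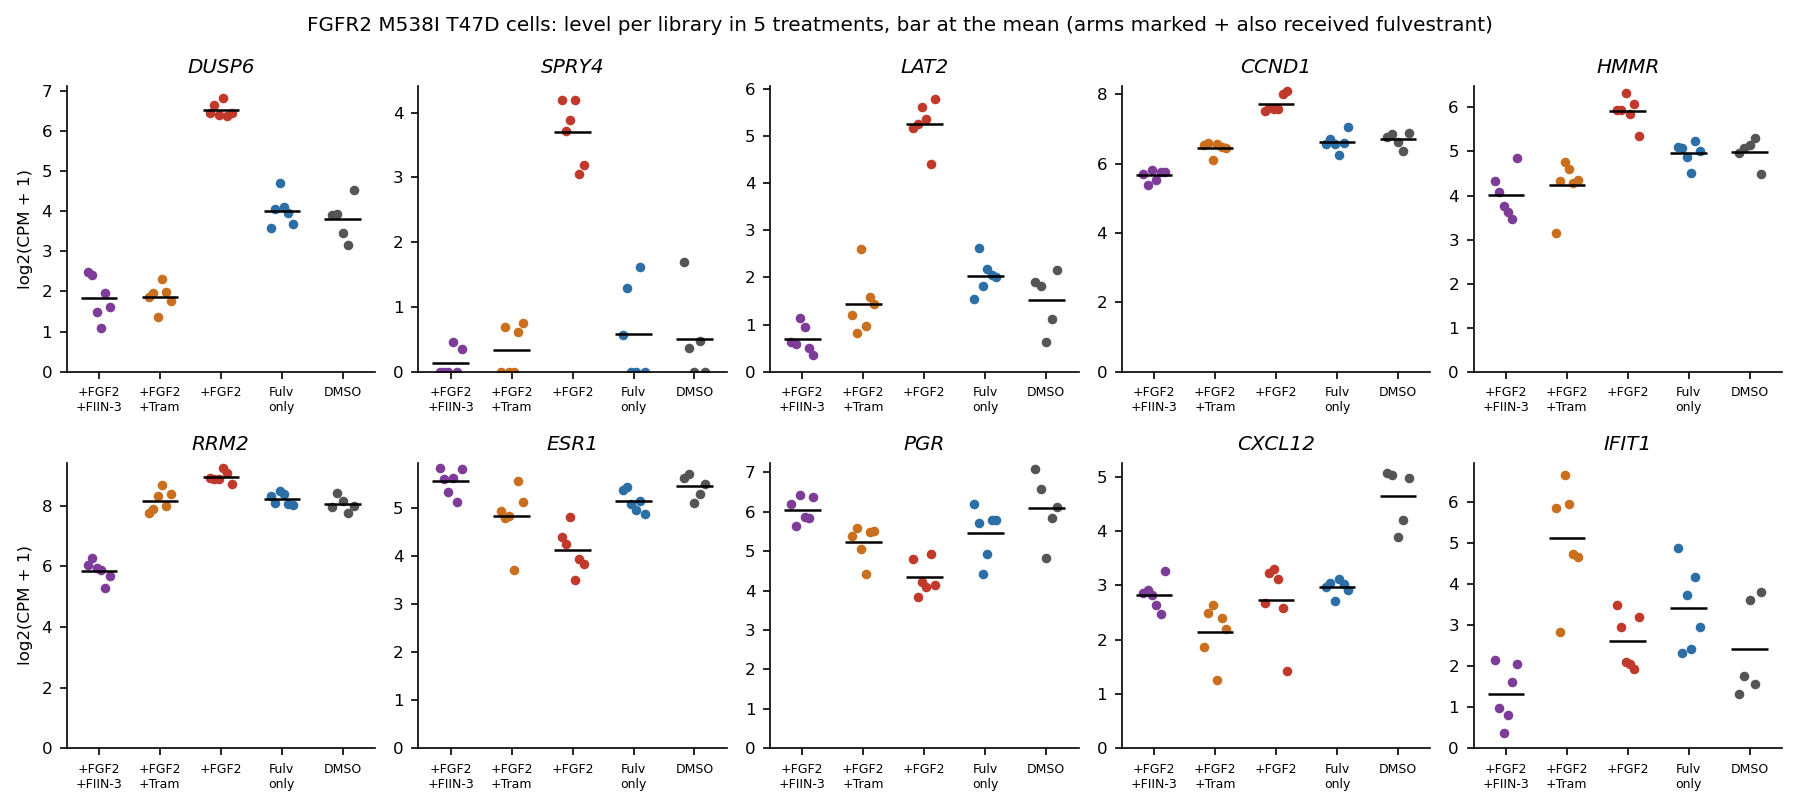
Level of 10 genes in each library of 5 M538I arms on the scale log2(CPM + 1), with Fulv+FGF2+FIIN-3, Fulv+FGF2+Tram, Fulv+FGF2, Fulv and DMSO left to right; points are libraries and bars the arm means. DUSP6, SPRY4, LAT2 and CCND1 are highest with FGF2 and low with either inhibitor, RRM2 is lowest with FIIN-3, CXCL12 is highest in DMSO and the mean of IFIT1 is highest with trametinib.

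Whether fulvestrant changed the response to FGF2 in M538I cells was tested as the difference between the FGF2 effects with and without fulvestrant. Of 13428 genes 0 were higher and 0 lower in edgeR's quasi-likelihood test and in DESeq2, with 1359 at an unadjusted p under 0.05. Without fulvestrant, FGF2 against DMSO gave 240 higher and 450 lower genes of 12449 (1.93% and 3.61%, or 5.54% in all), and 2.02% in all without the DMSO libraries low in MT-RNR2. DUSP6 changed by 2.33 there without those libraries. DUSP6 changed by 2.55 ± 0.20 with FGF2 under fulvestrant and by 2.61 ± 0.27 without fulvestrant, a difference of -0.0313 ± 0.31. The difference was 0.0733 ± 0.25 for CCND1, 0.316 ± 0.28 for HMMR and 0.382 ± 0.46 for PGR.

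The response was next set against that of the parental and GFP lines, which carry no added receptor and were averaged with equal weight. These control lines gave 897 higher and 631 lower genes of 13416 with FGF2 under fulvestrant (6.69% and 4.7%). The difference between the M538I response and theirs was called for 456 genes of 13712 (1.52% higher and 1.8% lower in M538I). This difference was not also computed with neighbouring libraries summed. No feedback gene differed past the threshold, and DUSP6 changed by 2.55 ± 0.20 in M538I cells and 2.45 ± 0.16 in the control lines, a difference of 0.103 ± 0.26. DUSP4 and SPRY4 differed by 0.159 ± 0.18 and 0.139 ± 1.0, the last with a wide error. Among early factors 4 of 21 were higher in M538I. JUNB changed by 1.73 ± 0.30 in M538I cells and -0.538 ± 0.30 in control lines (difference 2.28 ± 0.49), and KLF4 by 1.48 ± 0.29 and -0.556 ± 0.21 (difference 2.04 ± 0.35). IER3 and IER2 differed by 1.3 and 1.21. Among ERK effectors 4 of 14 were higher in M538I and 1 lower. LAT2 changed by 3.61 ± 0.27 in M538I cells and 0.948 ± 0.24 in control lines (difference 2.67 ± 0.34), and AREG by 2.07 ± 0.29 and -0.202 ± 0.18 (difference 2.27 ± 0.34). PHLDA2 and SPHK1 differed by 1.57 and 1.78.

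Genes of a keratin pair, involucrin and several transporters also responded more in M538I cells than in the control lines. KRT8 changed by 1.37 ± 0.18 in M538I cells and -0.36 ± 0.10 in control lines (difference 1.73 ± 0.20, adjusted p = 2.93e-07), and KRT18 by 1.69 ± 0.22 and -0.05 ± 0.11 (difference 1.74 ± 0.23). IVL differed by 2.09. SLC7A11, SLC7A5 and SLC2A1 differed by 1.5, 1.22 and 1.08. CAPN8, named after its values were seen, differed by 3.27 ± 0.37 at a mean of 2.9 log2 CPM in this fit. Among genes with a mean of at least 3 log2 CPM in it, the largest differences were in GDF15 (2.68 ± 0.40), LAT2, the retinoic acid induced receptor GPRC5A (2.54 ± 0.24), the sphingosine 1-phosphate transporter SPNS2 (2.47 ± 0.30), which overlaps MYBBP1A on the other strand, and TIMP1 (2.29 ± 0.28). In the other direction they were in CLSTN2 (-1.84 ± 0.33), KLHDC7A (-1.71 ± 0.40), RP11-663N22.1 (-1.70 ± 0.29), SLC25A18 (-1.66 ± 0.23), the fatty acid elongase ELOVL3 (-1.56 ± 0.24) and ARHGAP15 (-1.52 ± 0.32).

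A few replication genes responded less in M538I cells than in the control lines. With FGF2, 1 of 34 G1/S genes and 15 of 30 mitotic genes were higher in M538I cells, against 31 and all 30 in the control lines, where the medians were 0.70 and 1.03. The control-line fit held 24 libraries and the M538I fit 12, so these counts of calls differ in power too. The difference itself was called for 4 G1/S genes, all lower in M538I, and for no mitotic gene. PCNA, the replication clamp, changed by -0.286 ± 0.18 in M538I cells and 0.554 ± 0.096 in control lines (difference -0.835 ± 0.19, adjusted p = 0.00641). TYMS, CHAF1B and FEN1 differed by -0.696, -0.761 and -0.606. No estrogen receptor target of 33 differed between the lines past the threshold.

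**Figure D5:**
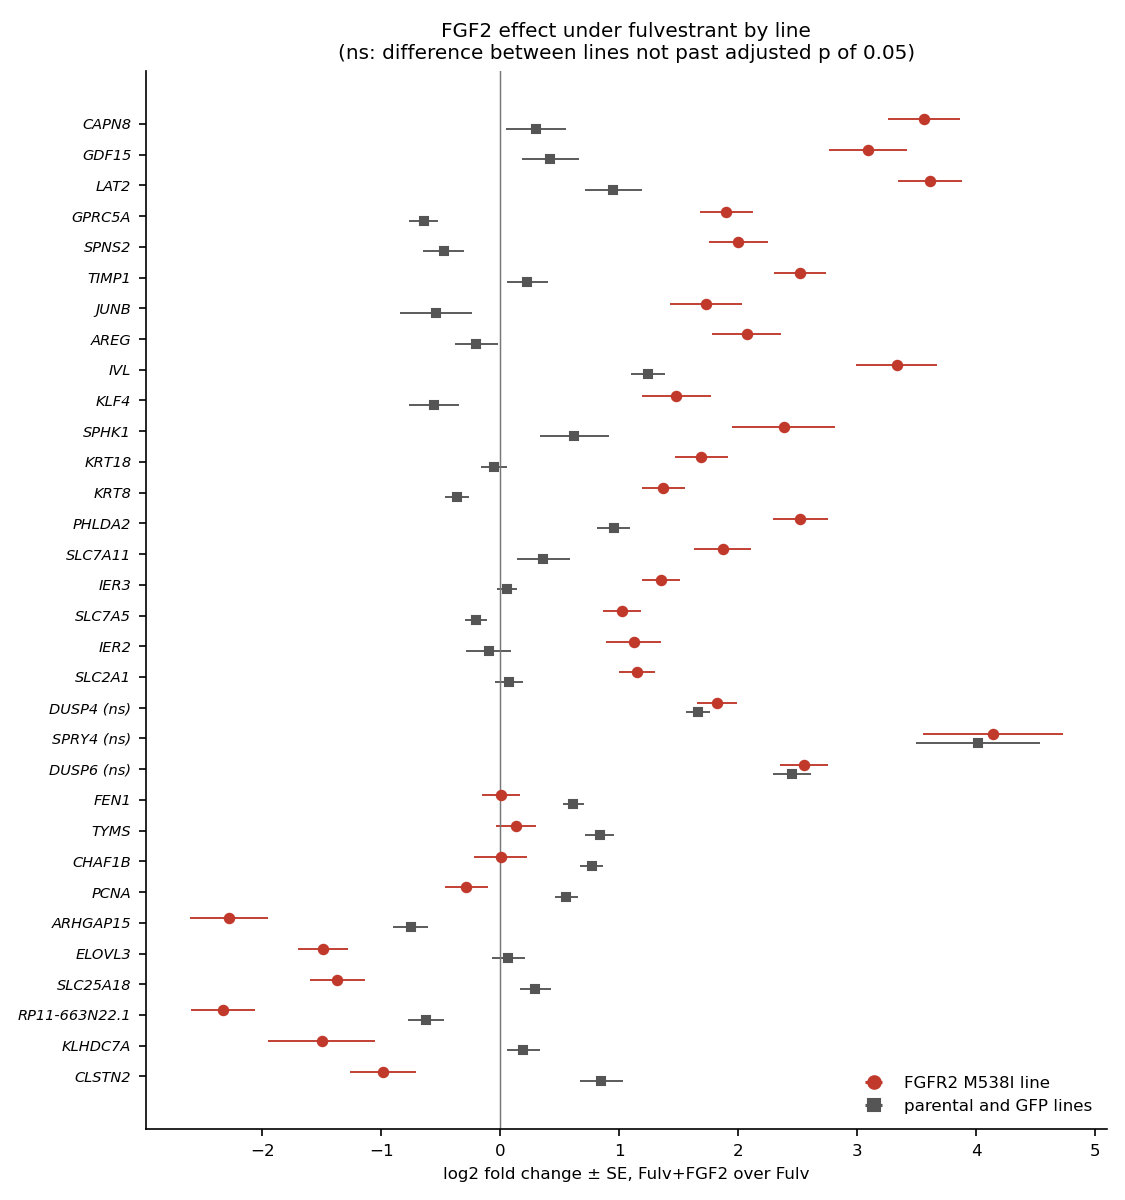
Log2 fold change with SE of the FGF2 effect under fulvestrant, Fulv+FGF2 over Fulv, in the FGFR2 M538I line (red circles) and in the parental and GFP lines (grey squares), for genes named in the text. Genes marked ns did not differ between the lines past an adjusted p of 0.05; DUSP6, DUSP4 and SPRY4 differed between the lines by 0.103, 0.159 and 0.139, while LAT2, GDF15, JUNB and KRT8 were higher in M538I.

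Cells carrying wild-type FGFR2 gave 937 higher and 946 lower genes of 12548 with FGF2 under fulvestrant (7.47% and 7.54%), and 1526 higher and 1265 lower without the library low in MT-RNR2. The difference between the M538I and wild-type responses was called for 0 higher and 0 lower genes of 13294 in edgeR's quasi-likelihood test and in DESeq2, with 446 at an unadjusted p under 0.05. DUSP6 changed by 2.55 ± 0.20 in M538I cells and 3.50 ± 0.27 in wild-type FGFR2 cells (difference -0.949 ± 0.32, adjusted p = 0.997). LAT2 changed by 3.61 ± 0.27 in M538I cells and 4.97 ± 0.27 in wild-type FGFR2 cells (difference -1.36 ± 0.38), and KRT8 by 1.37 ± 0.18 and 1.32 ± 0.25 (difference 0.0461 ± 0.29). Mitotic genes were higher in 15 of 30 in M538I cells and 25 of 30 in wild-type FGFR2 cells, with medians of 0.67 and 1.07, and none of these genes differed between them past the threshold. FGFR2 itself ran from 131.85 to 730.57 CPM in M538I and from 200.8 to 757.5 CPM in wild-type FGFR2 cells with FGF2, so the receptor levels of the lines overlapped.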

How the data were processed

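RNA of T47D cells was measured by SMART-Seq2 in 647 libraries, of which 71 entered here. Per the submitters' processing notes, the authors aligned reads with STAR to hg19; the sources used here do not name the counting program, its annotation, its use of strand or any version. The deposited count table holds whole-number counts per gene for 54592 genes, and 576 of its columns were not used. A second table deposited by the authors holds log2(TPM + 1) values, of which the 12 columns of the 2 M538I arms entered an alternative test and 635 were not used. Groups came from the treatment and lentivirus labels, and replicates were numbered in accession order.

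Each comparison was fitted on its own libraries in edgeR 4.0.16 (R 4.3.3) by glmQLFit and glmQLFTest after filterByExpr (minimum count 10) and TMM scaling, with Benjamini-Hochberg adjustment over all genes tested and a threshold of 0.05. Differences between responses were contrasts of group means in 1 fit. The code was tested on simulated counts with independent libraries, whereas neighbouring libraries here were alike. For Fulv+FGF2 against Fulv it recovered 52.6% of log2 changes of 1 and 92.8% of those of 2. For Fulv+FGF2 against DMSO it recovered 17.5% and 93.5%, and for M538I minus control lines 54% and 88.9%. A gene not called may therefore have changed by 2-fold. CPM are the counts scaled to a common library size after TMM. Alternatives were DESeq2 1.42.0, limma 3.58.1, other scaling, filters, thresholds and blocks, and leaving out libraries.

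Named genes were FGFR2, FGFR1 and FGF2, up to 12 per direction with the largest called change and a mean log2 CPM of at least 3, up to 6 per direction by that rule in other comparisons, and up to 6 members of each of 22 lists (428 genes) by size of change. Other members, and genes named for the difference between lines, were chosen after their values were seen. A few genes that the rule names are not reported here. The comparison, members and lists were chosen with earlier results of these data known. The lists cover FGF receptors, adaptors and co-receptors, ERK feedback, early factors, ERK effectors, estrogen receptor targets, G1/S, G2/M, G1 cyclins, luminal, basal, mesenchymal, interferon, ribosome biogenesis, FOXO, lipid synthesis, ATF4, glycolysis, BCL2, T47D markers, other cell types and mitochondrial transcripts. Exon overlaps came from GENCODE v29 and promoters from RefSeq, both for GRCh38, whereas reads were aligned to hg19.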

Additional observations from a re-analysis of the deposited data

Results flagged for a closer look

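Single libraries stood apart from the other 5 of their arm in 7 of 74 pairs of gene and arm by Dixon's ratio (critical value 0.625), a rule that flags about 1 in 20 by chance. In the Fulv+FGF2 arm replicate 6 was the highest for GDF15 (328.6 CPM, next 203.3), AREG (210.7 CPM, next 115.7) and KRT8 (31800 CPM, next 21200). In the Fulv arm replicate 3 was the highest for GDF15 (48.7 CPM, next 23.2) and PHLDA2 (54.5 CPM, next 34.1), replicate 1 for EGR1 (1.81 CPM, next 0.788) and replicate 6 for FGFR1 (15.1 CPM, next 9.1). Every one of the called genes among these kept its call when that library was left out.

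The FGF2 effect under fulvestrant differed between M538I cells and the parental and GFP lines in the test of the difference itself. It was higher in M538I cells, as a log2 difference, for CAPN8 by 3.27, GDF15 2.68, LAT2 2.67, GPRC5A 2.54, SPNS2 2.47, TIMP1 2.29, JUNB 2.28, AREG 2.27, IVL 2.09, KLF4 2.04, SPHK1 1.78, KRT18 1.74, KRT8 1.73, PHLDA2 1.57, SLC7A11 1.5, IER3 1.3, SLC7A5 1.22, IER2 1.21 and SLC2A1 1.08. It was lower by the differences -1.84 for CLSTN2, -1.71 for KLHDC7A, -1.70 for RP11-663N22.1, -1.66 for SLC25A18, -1.56 for ELOVL3, -1.52 for ARHGAP15, -0.835 for PCNA, -0.761 for CHAF1B, -0.696 for TYMS and -0.606 for FEN1. Among the genes higher in M538I cells, the control-line effect was below 0 and itself called for GPRC5A (-0.643) and KRT8 (-0.36). No gene differed past the threshold between the M538I and wild-type FGFR2 responses, which does not show that the responses were the same. In wild-type FGFR2 cells the effect was 4.33 for CAPN8, 2.80 for GDF15, 4.97 for LAT2 and 1.23 for GPRC5A. It was 1.3 for SPNS2, 2.50 for TIMP1 and 1.05 for JUNB. Of the genes lower in M538I cells, it was 0.183 for CLSTN2, -0.902 for KLHDC7A and -3.2 for RP11-663N22.1. For SLC25A18, ELOVL3 and ARHGAP15 it was -0.366, -1.06 and -2.7.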

How the results depend on the processing

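Counts of calls are given here as a percent of the genes tested in the comparison as reported. The comparison of Fulv+FGF2 with Fulv called 9.09%. Other values were 9.07% with DESeq2 size factors, 10.5% with no filter, 12.4% by DESeq2, 8.19% by limma on log2(TPM + 1), 7.77% with the spread shared over M538I arms, 6.17% to 11.5% leaving out single libraries, 3.6% at an adjusted p under 0.01, 18.8% with the 2 lowest ranges of title numbers and 1.7% with neighbouring libraries summed, which was chosen after seeing the data. Of the 1126 genes none reversed in these alternatives; the cause of the changed counts was not tested. Only the 2 lowest ranges of title numbers hold libraries of both arms, with correlations of deviations of 0.4 and 0.228. The higher ranges, taken as 1 block, gave -0.0445, so the numbers were not taken as pairs. A replicate block by range gave 14.3% here, 0.111% for Fulv against DMSO and 5.05% for M538I minus control lines. It gave 8.11% for Fulv+FGF2 against DMSO, 30% for FIIN-3 and 3.19% for Tram. For Tram, 65% of the calls as reported were kept with the block. For Fulv against DMSO (0.0238%) there were 4.78% with no filter, 0.0396% without libraries low in MT-RNR2 and 0% to 0.0475% leaving out single libraries. For Fulv+FGF2 against DMSO (6.33%) there were 15% with no filter, 16.8% by DESeq2, 4.08% without libraries low in MT-RNR2 and 2.21% to 14.5% leaving out single libraries, with more than a 1.5-fold shift without Fulv+FGF2 replicate 1, 2, 3 or 4 or DMSO replicate 1, 2, 3 or 4. The higher share of its calls was 43.3%, against 56.5% with the block. For Tram (3.8%) there were 5.72% with no filter, 5.8% by DESeq2 and 2.42% to 6.66% leaving out single libraries, with such a shift without Fulv+FGF2 replicate 1 or 2 or Tram replicate 1 or 4. Without libraries low in MT-RNR2, added after seeing the data, FGF2 against DMSO had 2.02% (5.54% with them) and wild-type FGFR2 22.2% (15% with them). FIIN-3 calls ran from 29.6% to 35.6% leaving out single libraries, and M538I minus control lines from 2.51% to 3.7%. Of the 2 comparisons of responses with 0 calls, fulvestrant gave 1.51% and wild-type FGFR2 0.113% with no filter, and leaving out single libraries gave 0 in both. Of 48 genes followed in the first comparison 40 kept their call in all alternatives. SCUBE2, PIK3IP1, ESR1, PGR, HMMR, RRM2, DUSP5 and KRT81 lost it in at least 1. These 48 include the largest changes and do not stand for all calls. With neighbouring libraries summed, 17.3% of the 1126 calls were kept. Summing was done for the first comparison only, so calls of the other comparisons were not checked in that way. Libraries low in depth or MT-RNR2 were absent from the first comparison, so those alternatives gave no value there. Depth limits early genes such as FOSL1, with counts near 0 in Fulv libraries.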
